A study of Mus musculus with 7 samples.

Results

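Potassium channel genes were followed through serial transplantation of mouse gliomas. The members were the genes whose symbol begins with Kcn, followed by a family letter code and a number, together with the numbered Hcn genes, which encode pacemaker channels. A gene counted if a probe of the array was annotated with its symbol alone, and where several were, the one brightest on average stood for it. This gave 82 genes, measured by 160 probes, of 18193 genes on the array, and 37 of them had 1 probe only. Genes of these families without such a probe were not analysed here. By class the members were 31 pore subunits of voltage-gated channels, 15 inward rectifiers (Kcnj) and 12 tandem-pore leak channels (Kcnk). Another 8 were of the families gated by calcium or sodium inside the cell, although Kcnu1 among them is pH-gated. The rest were 14 auxiliary subunits, which assemble with a pore but form none, and 2 Hcn channels.

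Potassium channels let potassium leave the cell along its gradient and thereby hold the membrane potential negative. Leak channels and inward rectifiers set the resting potential, voltage-gated and calcium-activated channels end electrical activity, and Hcn channels carry an inward current on hyperpolarisation. In brain, astrocytes and oligodendrocyte precursors clear potassium through the inward rectifier Kir4.1 (Kcnj10), precursors also carry A-type currents of the Kv4 family, and microglia use a small set of their own, among them Kir2.1, Kv1.3 and the leak channel THIK-1.

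The arrays came from EGFP-positive glioma cells. The tumours were low-grade gliomas of early onset in which PDGF-B, a growth factor that drives oligodendrocyte precursor proliferation, was overexpressed with EGFP from 1 bicistronic transcript in cells of C57/Bl6 background. Primary tumour cells grafted into NOD/SCID mice, a strain with myeloid cells but no working lymphocytes of the B and T lineages, gave 4 secondary gliomas, and a further passage in NOD/SCID mice gave 3 tertiary gliomas. All 7 samples share the transgene, the cells' strain, the host strain, dissection when symptoms began, trypsin dissociation and flow sorting for EGFP. The promoter of the transgene, the age of the animals, and the primary tumour, donor glioma and host behind each sample were not stated in the labels. The p-values therefore measure the spread between these samples.

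The samples were checked against marker genes of the cell types they could hold. Of the oligodendrocyte precursor and proneural glioma markers, 11 were tested and 0 were called by limma, with 0 at an unadjusted p under 0.05 and a mean log2 signal of 10.0 to 10.5 in both groups. All 19 measured microglia and macrophage markers were lower in tertiary gliomas, with a median log2 difference of -4.19. Their mean signal was 9.82 to 10.7 in the secondary gliomas, highest in secondary glioma 3, and 5.73 to 6.53 in the tertiary gliomas, where 2 of the 19 lay below the filter on dim probes. Of 7 mature oligodendrocyte markers, 2 were called lower, Mog (-2.42, adjusted p = 0.00102) and Mag (-2.42, adjusted p = 0.00747), and 6 had a lower value at an unadjusted p under 0.05. The list's median difference was -1.51 and its mean signal was 8.22 to 9.08 in the secondary and 7.08 to 7.34 in the tertiary gliomas. By limma 0 were called among 7 endothelial and mural markers (3 lower at an unadjusted p under 0.05), 8 astrocyte markers (2 lower), 10 neuron markers (2 higher) and 3 lymphocyte markers (0). The sort was for EGFP, which marks the tumour cells, and in bulk RNA fewer cells of a type and less RNA per cell cannot be told apart. Secondary glioma 3 and tertiary glioma 1 stood somewhat apart from their groups, with the lowest correlations within them (0.943 to 0.959 and 0.934 to 0.939 over all genes tested).

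Promoters of 4 members are printed because the results turn on these genes. Kcnk6, which also fell strongly, had no promoter entry in the reference used and could not be shown. Kcnj2, Kcna3 and Kcnk13 had lower values in every tertiary glioma than in any secondary one, and Kcnj10, an inward rectifier known from glia, showed no such difference. Kcnn4, which was not called, and the dim Kcnc2, which was not tested, also had every tertiary value below every secondary one. Their promoters are not printed, so the windows shown are a choice and their matches give no share among lower genes. Each window runs from 250 bases before to 50 bases after the annotated start, 5′ to 3′ on the plus strand, from RefSeq in build GRCm38.p6. Capitals mark GAGGAA or its reverse complement TTCCTC, the core letters of sites bound by PU.1, the ETS factor of myeloid cells. The windows lie at chr11:111065914-111066213 for Kcnj2, chr3:107035912-107036211 for Kcna3, chr12:99964249-99964548 for Kcnk13 and chr1:172340960-172341259 for Kcnj10.
Kcnj2: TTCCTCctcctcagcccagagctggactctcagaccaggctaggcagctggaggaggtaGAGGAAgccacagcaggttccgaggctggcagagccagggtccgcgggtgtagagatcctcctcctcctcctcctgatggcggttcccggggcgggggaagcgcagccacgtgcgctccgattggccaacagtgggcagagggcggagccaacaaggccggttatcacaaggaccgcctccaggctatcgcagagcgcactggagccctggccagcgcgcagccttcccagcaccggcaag
Kcna3: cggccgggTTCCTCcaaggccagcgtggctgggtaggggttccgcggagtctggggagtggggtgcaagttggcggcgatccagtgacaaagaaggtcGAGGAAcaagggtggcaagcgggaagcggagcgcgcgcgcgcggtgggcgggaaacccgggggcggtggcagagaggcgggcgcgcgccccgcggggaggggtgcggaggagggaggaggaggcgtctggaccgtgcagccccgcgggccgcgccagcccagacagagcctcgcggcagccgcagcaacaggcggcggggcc
Kcnk13: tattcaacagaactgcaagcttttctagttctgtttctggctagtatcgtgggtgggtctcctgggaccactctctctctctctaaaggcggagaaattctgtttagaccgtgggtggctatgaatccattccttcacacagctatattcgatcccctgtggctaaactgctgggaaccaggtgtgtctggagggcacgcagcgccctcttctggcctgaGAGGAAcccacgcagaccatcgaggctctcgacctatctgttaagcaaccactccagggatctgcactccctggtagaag
Kcnj10: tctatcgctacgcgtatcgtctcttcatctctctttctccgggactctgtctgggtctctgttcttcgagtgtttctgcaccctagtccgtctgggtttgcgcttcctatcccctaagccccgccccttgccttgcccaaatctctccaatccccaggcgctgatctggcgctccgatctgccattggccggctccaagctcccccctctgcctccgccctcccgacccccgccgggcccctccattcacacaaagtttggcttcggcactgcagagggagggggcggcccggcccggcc

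Kcnj2 and Kcna3 had 2 matches each, Kcnk13 had 1 and Kcnj10 had 0. A match is a description of these letters only. Of all 32851 promoters in the table, 28.3% hold the letters on either strand, and so do 25 of the 87 windows found for 62 members (28.7%). The Kcna3 window held the most CG dinucleotides of the windows printed, with 37, against 18 in Kcnj2, 21 in Kcnj10 and 9 in Kcnk13. The median was 7 over all promoters and 9 over the member windows, so Kcnj2 and Kcnj10 lay above both medians as well. Median GC content was 58% in the member windows and 52.7% in all promoters, and its part in the shares that follow was not tested. Member windows were more often without the TATA box letters TATAAA, which 5 of 87 held (5.75%), against 13.6% of all promoters, while 42 of 87 held GGGCGG, the letters of an Sp1 box (48.3%), against 35.7%.

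The comparison of tertiary with secondary gliomas asks which channel genes differed after 1 more passage. Most of them did not pass the test. Dim genes were left out by a filter at a mean log2 signal of 3.99, the 25th percentile over all probes, which kept 67 of the 82 members. Of these 67, 3 were lower in tertiary gliomas at an adjusted p under 0.05 in limma's test with Benjamini-Hochberg adjustment over 14453 genes, namely Kcnj2, Kcnk6 and Kcna3. That is 4.48%, against 6.33% of all genes tested. No member was called higher (0 of 67, against 1.04% of all genes), and 9 members had an unadjusted p under 0.05, 5 lower and 4 higher (13.4%, against 23.8% of all genes). Without tertiary glioma 1 the lower calls numbered 5, with Kcna1 and Kcnn3 added, without tertiary glioma 2 they numbered 2, with Kcna3 lost, and without tertiary glioma 3 Kcnk13 took the place of Kcna3. Without tertiary glioma 2 there were 2 higher calls, Kcna5 and Kcnmb4. Over all genes the number of calls changed with the setting too. Higher calls over all genes were fewest without tertiary glioma 2 and most without tertiary glioma 1. The counts with a sample left out therefore cannot be set against the shares above. The median log2 difference was 0.01 over the members tested and 0.09 over all genes tested, and 53 of the 67 differed by less than 0.5 in either direction. Groups did not overlap for 8 of the 67 members (11.9%), a smaller share than the 21.9% of all genes tested. Both the called share and the share without overlap were thus no larger among the members than among all genes.

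**Figure D1:**
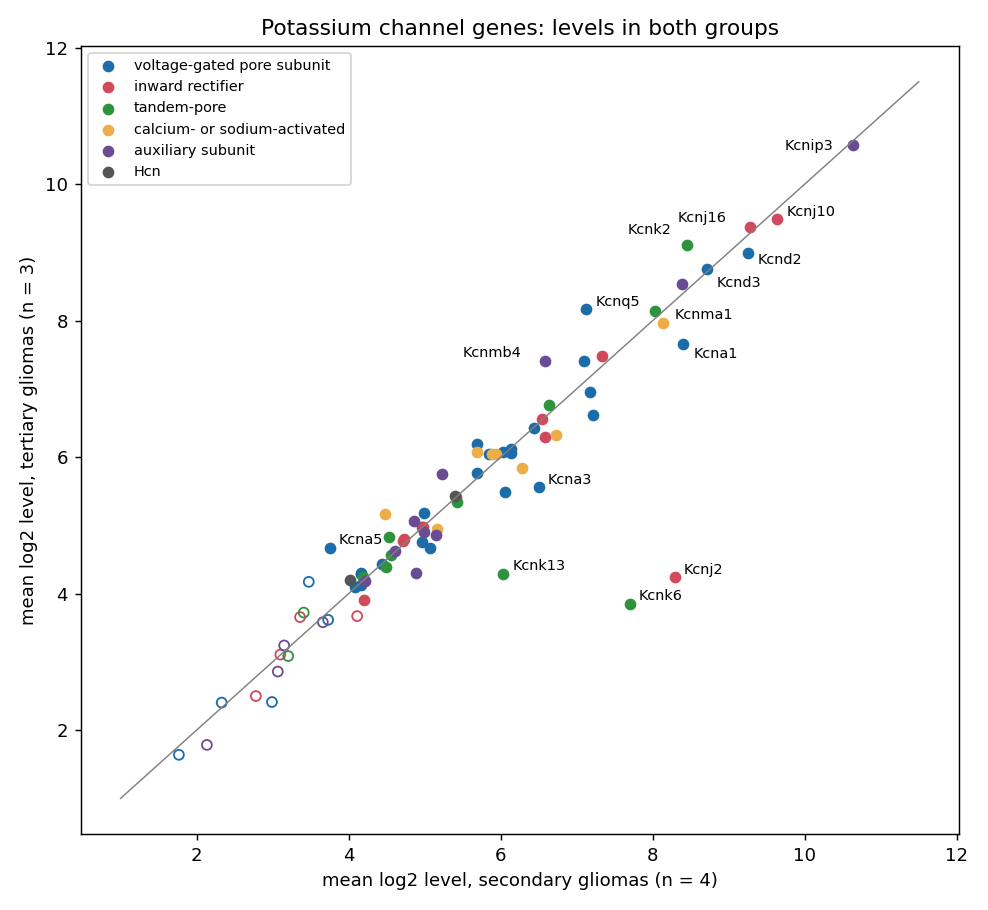
Mean log2 RMA signal of each of the 82 members in secondary gliomas (horizontal axis, n = 4) and tertiary gliomas (vertical axis, n = 3), coloured by channel class, with open circles for the 15 members left out as dim and a grey line of equal signal. Kcnj2 and Kcnk6 lie about 4 log2 units below the line, Kcnk13 lies below it by 1.75, and most of the brightest members lie near it.

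The inward rectifiers held the largest fall. Kcnj2 encodes Kir2.1, a strong inward rectifier that sets the resting potential of muscle, neurons and macrophages. Its log2 signal was 8.04, 8.42, 8.90 and 7.81 in secondary gliomas 1 to 4 and 4.47, 4.69 and 3.56 in tertiary gliomas 1 to 3. Every secondary glioma was above every tertiary one, with secondary glioma 3 the highest and tertiary glioma 3 the lowest. The difference was -4.05 ± 0.34 (SE, n = 4 and 3, adjusted p = 0.000261 in limma), a signal 16.6-fold lower, with a 95% interval of -4.84 to -3.26. This ratio takes the tertiary signal at its deposited value, which was close to the filter on dim probes, and no detection calls were used here. The microglia and macrophage markers fell in the same arrays with a median of -4.19, and their part in the result was not tested.

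The inward rectifiers Kcnj10 and Kcnj16 showed no such difference. Kcnj10, Kir4.1, the main potassium-clearing channel of astrocytes and oligodendrocyte precursors, had signals of 9.90, 9.71, 9.37 and 9.58 in the secondary and 9.84, 9.50 and 9.12 in the tertiary gliomas. The groups overlapped, and the difference of -0.16 had a 95% interval of -0.64 to 0.32. Kcnj16 encodes Kir5.1, which joins Kir4.1 in a mixed channel, and its signals were 9.52, 9.76, 8.56 and 9.26 against 9.91, 8.82 and 9.37. Here too the groups overlapped, with a difference of 0.09 and an interval of -0.70 to 0.88. Kcnj16 lies next to Kcnj2 on chromosome 11 among coding genes of the RefSeq table, so the neighbours had unlike differences. Kcnj11, which encodes Kir6.2, the pore of the ATP-sensitive channel, lay between 7.25 and 7.50 in the secondary and between 7.38 and 7.64 in the tertiary gliomas, a difference of 0.15 ± 0.13 (SE). Over the 11 inward rectifiers tested, 1 was called lower, differences ran from -4.05 to 0.15, and the median was 0.00.

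The tandem-pore channels held the next largest fall. Kcnk6 encodes TWIK2, a leak channel that in mouse macrophages is a route of potassium efflux upstream of the NLRP3 inflammasome. Its signal was 7.11, 7.80, 8.53 and 7.35 in the secondary gliomas and 3.72, 4.08 and 3.74 in the tertiary ones. The groups lay far apart, with secondary glioma 3 again the highest, and 2 of the 3 tertiary values were below the filter. The difference was -3.85 ± 0.32 (SE, n = 4 and 3, adjusted p = 0.000261 in limma), with a 95% interval of -4.60 to -3.10. Kcnk6 passed the filter through its secondary signal, since its tertiary mean of 3.85 lay below the filter, so the size of the difference is inexact.

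Kcnk13 encodes THIK-1, the main leak channel of mouse microglia. Its signals were 5.55, 5.98, 6.93 and 5.68 in the secondary gliomas and 3.86, 3.73 and 5.28 in the tertiary ones. Every tertiary value was below every secondary value, but tertiary glioma 3 came close to secondary glioma 1. The difference of -1.75 ± 0.46 (SE) did not pass the threshold (adjusted p = 0.0647 in limma), and did so without tertiary glioma 3 (-2.24, adjusted p = 0.0225). A further Kcnk13 probe read 1.27 to 1.45 on all 7 arrays, a range in which no difference could be seen. For Kcnj2, Kcnk6 and Kcnk13 alike, the part of the microglia and macrophage markers and of the mature oligodendrocyte markers, whose signals fell between the same groups, was not tested.

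The leak channels Kcnk2 and Kcnk1 were not called. Kcnk2, TREK-1, a leak channel opened by membrane stretch and lipids, had signals of 8.73, 8.87, 7.46 and 8.76 in the secondary and 9.39, 9.07 and 8.87 in the tertiary gliomas. Secondary glioma 3 was far below the rest, and the highest secondary value equalled the lowest tertiary value. The difference was 0.65 ± 0.35 (SE) with a 95% interval of -0.16 to 1.46 and an adjusted p of 0.299 in limma. Kcnk1, TWIK-1, ranged from 7.56 to 8.69 in the secondary and from 7.66 to 8.79 in the tertiary gliomas, a difference of 0.12 ± 0.34 (SE). Over the 10 tandem-pore genes tested, 1 was called lower and the median difference was 0.03.

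**Figure D2:**
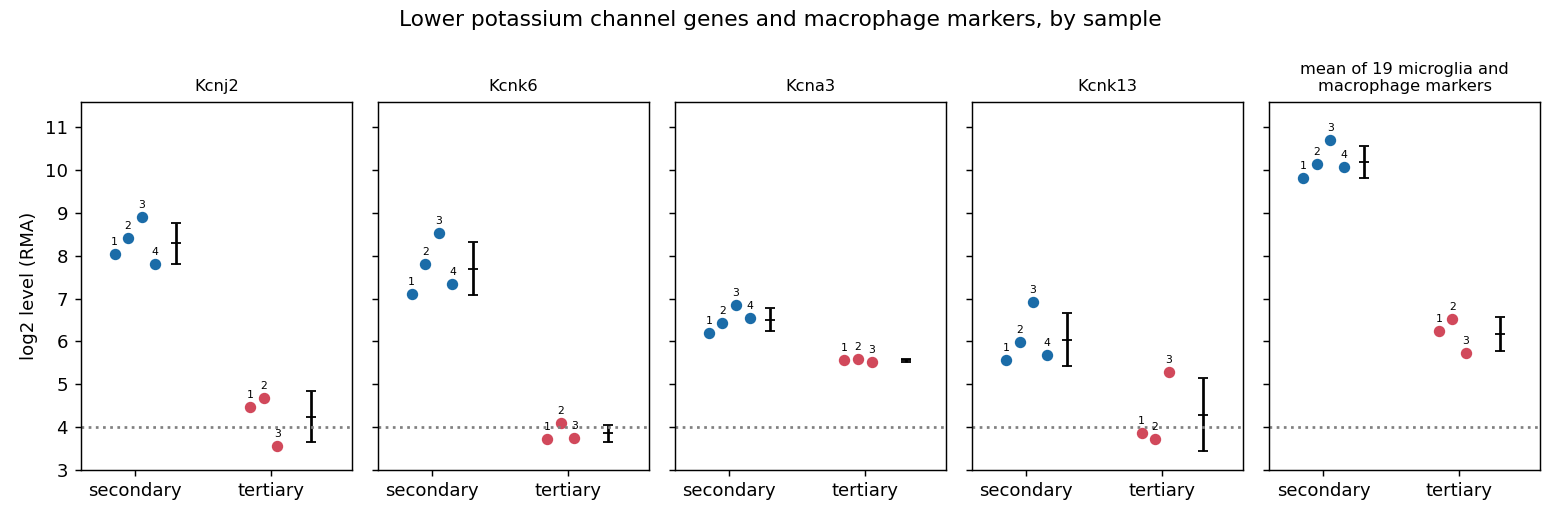
Log2 RMA signal of Kcnj2, Kcnk6, Kcna3 and Kcnk13 and the mean of 19 microglia and macrophage markers in each secondary (blue) and tertiary (red) glioma, numbered by replicate, with the group mean ± SD in black and the filter at 3.99 dotted. In all 5 panels the groups do not overlap, and secondary glioma 3 is the highest sample in each.

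Among voltage-gated channels 1 member was called. Kcna3 encodes Kv1.3, the delayed rectifier of T lymphocytes and activated microglia. Its signals were 6.20, 6.42, 6.84 and 6.54 in the secondary gliomas and 5.56, 5.59 and 5.52 in the tertiary ones. The tertiary values lay close together and below every secondary value. The difference was -0.94 ± 0.17 (SE, n = 4 and 3, adjusted p = 0.0137 in limma), 1.92-fold lower, with a 95% interval of -1.33 to -0.55. The call was lost without tertiary glioma 2 (adjusted p = 0.0519) or 3 (0.0607). Of the lymphocyte markers, 5 of 7 measured lay below the filter in tertiary and 4 of 7 in secondary gliomas. Prf1, another of them, had means of 8.16 in the secondary and 8.28 in the tertiary gliomas. The microglia and macrophage and the mature oligodendrocyte markers had lower medians in tertiary gliomas. The part of any of these cell types in the Kcna3 difference was not tested. Over the 26 voltage-gated genes tested, differences ran from -0.94 to 1.04 with a median of 0.00.

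The Kv4 channels, which carry the A-type current of neurons and oligodendrocyte precursors, overlapped between the groups. Kcnd2 (Kv4.2) had signals of 9.56, 9.20, 8.82 and 9.45 in the secondary and 9.49, 8.59 and 8.91 in the tertiary gliomas. Tertiary glioma 2 was the lowest sample and the difference of -0.26 ± 0.26 (SE) was within the spread. Kcnd3 (Kv4.3) had signals of 8.89, 8.95, 8.10 and 8.94 against 8.97, 8.39 and 8.92, with secondary glioma 3 low and a difference of 0.04 ± 0.26 (SE). The cytoplasmic partners of these pores overlapped as well. Kcnip3 (KChIP3, also known as the calcium-dependent transcriptional repressor DREAM) had signals of 10.78, 10.94, 9.90 and 10.94 against 10.94, 10.28 and 10.50, a difference of -0.07 ± 0.29 (SE). Secondary glioma 3 was the lowest of the 7. Kcnip1 (KChIP1) ranged from 8.03 to 8.81 in the secondary gliomas, while the tertiary gliomas stood at 9.68, 8.46 and 7.48, above, within and below that range.

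Members with higher values in tertiary gliomas did not pass the test. Kcnq5 encodes Kv7.5, a subunit of the M-current that restrains neuronal firing. Its signals were 7.30, 7.24, 6.46 and 7.51 in the secondary and 8.27, 8.39 and 7.84 in the tertiary gliomas. All tertiary values were above all secondary values, as they also were for its other 2 probes shown in the plot by probe. The difference was 1.04 ± 0.27 (SE, n = 4 and 3) with an adjusted p of 0.0610 in limma and a 95% interval of 0.42 to 1.66. Kcna5 (Kv1.5), named after its values were seen, had signals of 3.47, 3.96, 3.68 and 3.90 against 4.95, 4.13 and 4.94. Its groups did not overlap either, but the secondary mean of 3.75 lay below the filter, so the gene was tested through its tertiary signal (0.92 ± 0.24, adjusted p = 0.0624), and without tertiary glioma 2 it passed the threshold (1.20, adjusted p = 0.0136). Kcna6 (Kv1.6) and Kcnh2, the cardiac and neuronal delayed rectifier ERG1, had differences of 0.31 ± 0.22 and 0.50 ± 0.30 (SE) with overlapping groups.

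Kcna1 encodes Kv1.1, a low-threshold delayed rectifier of axons, and it divided the tertiary gliomas. It was named after its values were seen. Its signals were 8.34, 8.34, 8.39 and 8.53 in the secondary and 9.17, 6.92 and 6.89 in the tertiary gliomas. Tertiary glioma 1 was above every other sample and tertiary gliomas 2 and 3 were below every secondary one, and 2 further probes of the gene also read about 2 log2 units more in tertiary glioma 1 than in the remaining tertiary gliomas. The last of its 4 probes lay below the filter, at 2.91 to 3.59 on all arrays, and had no such gap. The difference was -0.74 ± 0.52 (SE, adjusted p = 0.422 in limma), and without tertiary glioma 1 it was -1.50 (adjusted p = 0.00105). Kcna2 (Kv1.2), likewise named after its values were seen, lies beside Kcna3 on chromosome 3 and ranged from 6.17 to 7.63 in the secondary and from 6.67 to 7.39 in the tertiary gliomas.

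**Figure D3:**
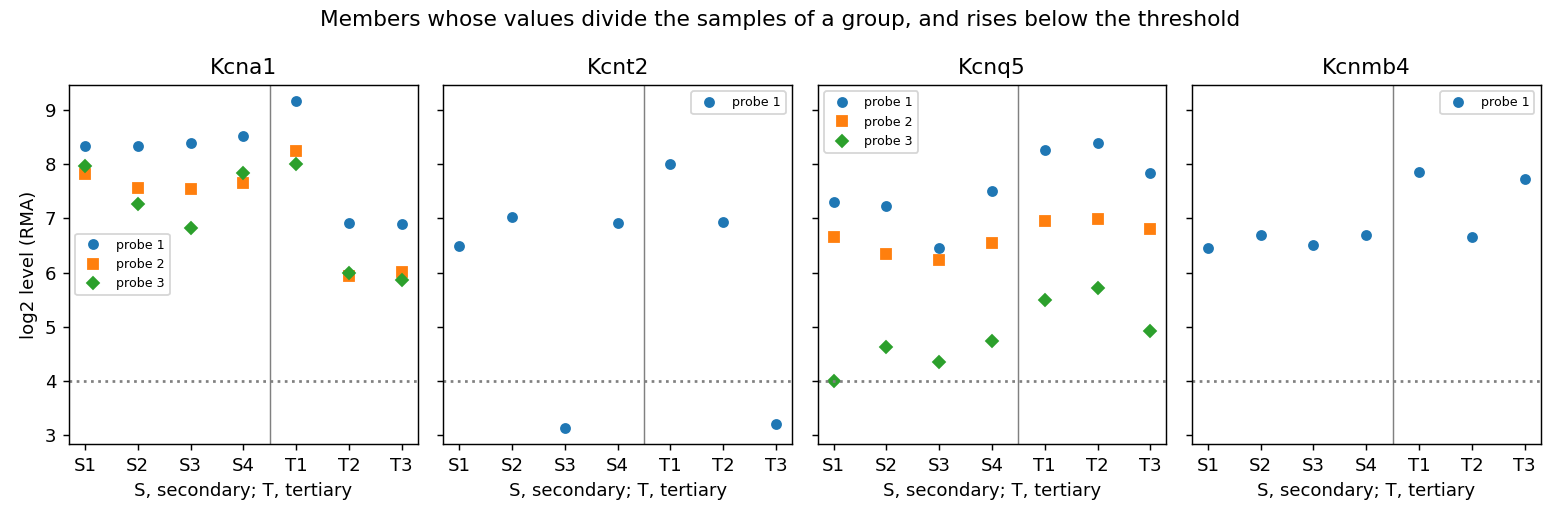
Log2 RMA signal of Kcna1, Kcnt2, Kcnq5 and Kcnmb4 in secondary gliomas 1 to 4 (S1 to S4) and tertiary gliomas 1 to 3 (T1 to T3), 1 symbol per probe of the gene above the filter, with the filter at 3.99 dotted. Kcna1 is high in T1 on the 3 probes shown, Kcnt2 is low in S3 and T3, all 3 Kcnq5 probes are higher in tertiary gliomas, and Kcnmb4 is at the secondary level in T2.

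The class of calcium- or sodium-activated channels was set by symbol and includes the pH-gated Kcnu1. Of its 8 genes, 0 were called in limma's test and 2, Kcnn4 and Kcnu1, had an unadjusted p under 0.05, as had 23.8% of all genes tested. Without tertiary glioma 1 their median difference of -0.04 became -0.52, and 1, Kcnn3, was called. Calls over all genes changed in that setting too, and the median over all genes was not computed in it. The call and the median therefore cannot be set against the values from all samples. Kcnma1 encodes the large-conductance BK channel and had signals of 8.15, 8.62, 8.03 and 7.76 in the secondary and 8.74, 7.68 and 7.49 in the tertiary gliomas. Tertiary glioma 1 was the highest sample and the other tertiary gliomas the lowest, an order in which the mean difference was -0.17 with a 95% interval of -0.94 to 0.60. Kcnmb4, the brain β4 subunit of the BK channel, had signals of 6.46, 6.69, 6.50 and 6.69 against 7.87, 6.65 and 7.73. Tertiary gliomas 1 and 3 were above all others and tertiary glioma 2 was within the secondary range. Its difference of 0.83 ± 0.29 (SE) missed the threshold (adjusted p = 0.136 in limma) and passed it without tertiary glioma 2 (1.21, adjusted p = 0.00557).

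Kcnn4 encodes the intermediate-conductance channel KCa3.1 of microglia, lymphocytes and red cells. It had signals of 6.30, 6.01, 6.17 and 6.64 in the secondary and 5.94, 5.77 and 5.83 in the tertiary gliomas. The groups did not overlap, by a narrow margin, and the difference of -0.43 ± 0.17 (SE) gave an adjusted p of 0.178 in limma. Kcnn3, the small-conductance channel SK3, had signals of 6.70, 6.92, 6.64 and 6.66 against 6.96, 6.01 and 6.0. As for Kcna1, tertiary glioma 1 was the highest sample and tertiary gliomas 2 and 3 the lowest, and the difference of -0.41 became -0.72 without tertiary glioma 1 (adjusted p = 0.358 and 0.0220). Kcnu1, the pH-gated Slo3 channel of sperm, ranged from 3.91 to 4.74 in the secondary and from 5.04 to 5.44 in the tertiary gliomas (0.70 ± 0.23, SE, adjusted p = 0.126). Kcnt2, the sodium-activated channel Slick, was named after its values were seen and had the widest spread within groups. Its signals were 6.50, 7.02, 3.13 and 6.92 in the secondary and 8.0, 6.94 and 3.20 in the tertiary gliomas, so secondary glioma 3 and tertiary glioma 3 lay below the filter and the other 5 samples well above it.

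The remaining auxiliary subunits and the Hcn channels had overlapping groups. Kcnab2, the Kvβ2 subunit of Kv1 channels, had means of 5.22 and 5.75 in secondary and tertiary gliomas, a difference of 0.53 ± 0.24 (SE, adjusted p = 0.225 in limma). Kcne4, an inhibitory single-pass subunit, had a difference of -0.58 ± 0.28 (SE, adjusted p = 0.252). Kcne1, the partner of the cardiac Kv7.1 pore, ranged from 3.72 to 4.50 over all samples, near the filter. Hcn2 lay between 5.28 and 5.44 and Hcn3 between 3.76 and 4.32 over all samples, with differences of 0.03 and 0.18. Of the 10 auxiliary genes tested, 0 were called in limma's test, and the median difference was -0.01. An unadjusted p under 0.05 was seen for 1 of them, Kcnmb4, and for 23.8% of all genes tested.

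**Figure D4:**
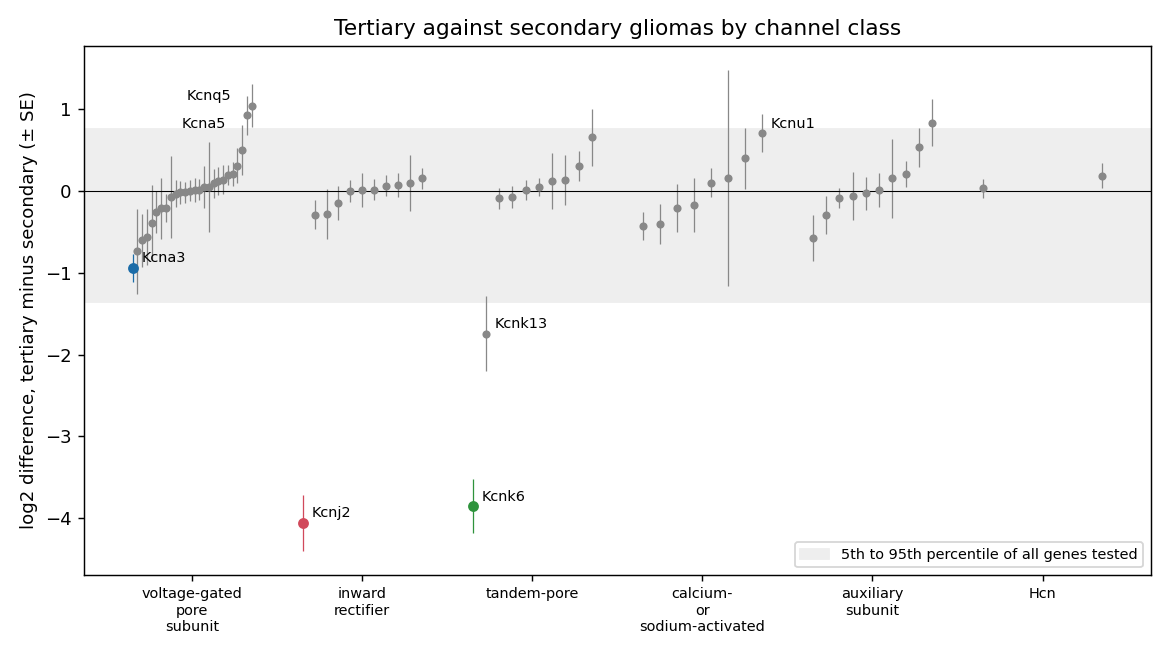
Log2 difference, tertiary minus secondary (± SE from limma, n = 3 and 4), of the 67 members tested, sorted within each channel class, with called members in colour and the rest in grey. The band spans the 5th to 95th percentile of all genes tested, and Kcnj2, Kcnk6 and the uncalled Kcnk13 lie below it while most members lie near 0.

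Signal brightness depends on the probe, so the following levels do not rank the genes. The 10 members with a mean log2 signal of 8 or more were Kcnip3, Kcnj10, Kcnj16, Kcnd2, Kcnd3, Kcnk2, Kcnip1, Kcna1, Kcnma1 and Kcnk1, and each had overlapping groups. Another 33 members lay between 5 and 8, and 24 tested members lay below 5. The 15 members left out as dim were Kcnv2, Kcng4, Kcnc2, Kcns2 and Kcnh5 of the voltage-gated class, Kcnj8, Kcnj15, Kcnj5 and Kcnj3 of the inward rectifiers, Kcnk4 and Kcnk5, and the auxiliary genes Kcne3, Kcnmb2, Kcne2 and Kcnmb1. Of the 29 members with more than 1 probe above the filter, 21 had the same sign of the difference on all such probes, while the 3 called members had 1 probe each.

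**Figure D5:**
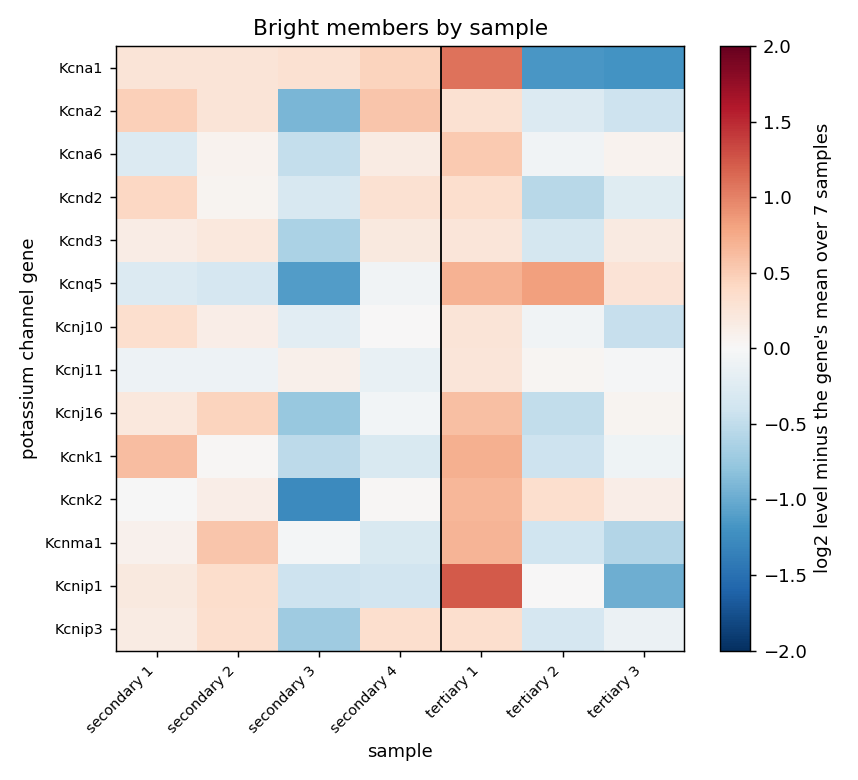
Log2 RMA signal of each of the 14 tested members with a mean of 7 or more, minus that gene's mean over the 7 samples (colour, red above and blue below), by sample (columns) and gene (rows). Tertiary glioma 1 is the highest tertiary sample in 13 rows and secondary glioma 3 the lowest secondary sample in 11.

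Among the brighter members the spread within groups had a shared order of samples. Of the 14 tested members with a mean signal of 7 or more, tertiary glioma 1 was the highest tertiary sample in 13 (92.9%), against 32.2% of all genes tested at that level. Secondary glioma 3 was the lowest secondary sample in 11 of the 14 (78.6%), against 42.9%, but over all 67 members tested it was the lowest in 23 (34.3%), close to the 33.0% of all genes. Over the 67 members, tertiary glioma 1 was the highest tertiary sample in 47 (70.1%, against 39.3%) and exceeded the mean of tertiary gliomas 2 and 3 by a median of 0.27 log2 units, against -0.01 over all genes tested. The median was 1.03 over the 8 calcium- or sodium-activated genes, 7 of which were highest in tertiary glioma 1, and -0.01 over the 10 tandem-pore genes. These shares describe 2 libraries and carry no test. The mean of the 8 astrocyte markers was also highest in tertiary glioma 1 among the tertiary samples, at 7.83 against 6.66 and 6.74. Gfap, 1 of the 8, was lowest there. Oligodendrocyte precursor markers (10.50 against 10.03 and 10.34) and mature oligodendrocyte markers (7.34 against 7.08 and 7.08) likewise had their highest tertiary mean in this sample. So did the endothelial and lymphocyte lists, while the microglia and neuron lists were highest in tertiary glioma 2. The part of any of these lists in this order was not tested.

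Genes that work with potassium channels, namely sodium pumps, cotransporters and channel partners, were taken from a list of 40, of which 34 were measured and 29 tested. In tertiary gliomas 3 of the 29 were called lower in limma's test (10.3%, against 6.33% of all genes) and 0 higher (against 1.04%), with a median difference of -0.07. At an unadjusted p under 0.05 there were 4 lower and 0 higher (13.8%, against 23.8% of all genes in either direction). Fxyd5, dysadherin, a small regulator of the sodium pump, had signals of 8.78, 9.29, 8.87 and 9.09 in the secondary and 6.07, 6.50 and 5.83 in the tertiary gliomas, with no overlap and a difference of -2.88 ± 0.20 (SE, adjusted p = 0.000118). Atp1b3, the β3 subunit of the pump, had means of 10.65 and 9.91 (-0.74 ± 0.13, SE, adjusted p = 0.0136). Abcc9 encodes SUR2, a regulatory subunit of ATP-sensitive channels, and had means of 5.01 and 3.42 (-1.59 ± 0.37, SE, adjusted p = 0.0432). The Atp1b3 call was lost without tertiary glioma 2 (adjusted p = 0.0553) or 3 (0.0621), and the Abcc9 call without secondary glioma 2 (0.0625) or 4 (0.0989) or any 1 of the tertiary gliomas (0.0518 to 0.154). The Abcc9 call was also lost with no filter (0.0591) and with each gene's own variance (0.163), and the gene was too dim to be tested with all probes averaged or the filter at the 50th percentile. Its tertiary values all lay below the filter, as did both group means of its pore partner Kcnj8, while Abcc8, the SUR1 partner of Kcnj11, had means of 5.96 and 5.90. Dpp6, a transmembrane partner of Kv4 channels, had overlapping groups with means of 8.50 and 8.19. The microglia and macrophage and the mature oligodendrocyte markers fell between the same groups as Fxyd5, Atp1b3 and Abcc9, and their part in these differences was not tested.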

How the data were processed

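The values are log2 RMA signals of each probe on each array, as deposited by the authors, per the submitters' processing notes. Which RMA software and version were used is not given in the labels. The values' range gave the log base. RMA makes the arrays alike, which hides a shift shared by most genes, and it shrinks differences of dim probes. Per the labels' protocols, 30 ng of total RNA was amplified with a NuGEN kit before hybridisation. Array medians were 5.57 to 5.64. Precision is limited by the number of arrays. No detection calls, scan dates or slides were used here, so no batch was tested. Of 45101 probes, 34945 carried 1 symbol, 932 several and 9160 none in the platform annotation, and 64 were controls. Only single-symbol probes were used, and 0 symbols needed updating against the RefSeq table of GRCm38.p6.

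Tertiary and secondary gliomas, grouped by the labels, were compared with limma 3.58.1 (lmFit, eBayes) in R 4.3.3 over 14453 genes, with no covariate. The steps were tested on simulated data. No 2 arrays shared more than 5.39% of values, so each counted as 1 sample. Members, marker lists and partner lists were chosen with earlier results of these data known. Named genes were the called members, in each class the lowest p in each direction without a call, and the highest signals, plus a short set always given. Members discussed outside this rule are said to be. The exceptions are members only listed as dim, as neighbours, for recurring values or as called under an alternative. Alternatives covered probe choice, filter, normalization, variance model, array weights, replicate block, threshold and each sample left out, and, added after seeing the data, both secondary glioma 3 and tertiary glioma 1 left out. Tables and figures used pandas 2.3.3 and matplotlib 3.10.9.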

Additional observations from a re-analysis of the deposited data

Results flagged for a closer look

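In the secondary gliomas, 4 of 26 members checked had 1 sample far from the other 3 by Dixon's criterion, and each time it was secondary glioma 3, with the lowest value. Chance flags about 1 in 20 such groups where the groups are independent. These members were read on the same arrays, so their flags are not independent and the count carries no test. Kcnd3 read 8.10 against 8.89 to 8.95 in the others. Kcnip3 read 9.90 against 10.78 to 10.94, and Kcnk2 read 7.46 against 8.73 to 8.87. Hcn2 read 5.28 against 5.43 to 5.44, a small gap that stands out because the other values nearly coincide. In the same sample the microglia and macrophage marker mean was the highest of the secondary gliomas, at 10.7, and the oligodendrocyte precursor marker mean the lowest, at 10.0; the part of either was not tested.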

How the results depend on the processing

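Kcnj2 and Kcnk6 kept their direction and their call under every alternative run, with differences of -4.28 to -3.71 and -4.04 to -3.57 when single samples were left out. Kcna3 lost its call with each gene's own variance (adjusted p = 0.0527) and with the replicate block (0.0962), and without tertiary glioma 2 (0.0519) or 3 (0.0607). The numbers pair no samples by the labels, deviations of same-numbered samples correlated at 0.04, -0.14 and 0.01, and the replicate block called 1 member higher, Kcnq5, and 1 partner gene lower; it also called Kcnk13 (-1.86, adjusted p = 0.0158). Members called lower numbered 2 to 5 when samples were left out, with Kcna1 and Kcnn3 added without tertiary glioma 1. Without both secondary glioma 3 and tertiary glioma 1 they numbered 7, with Kcna1, Kcna2, Kcnn3 and Kcnq3 added. Members called higher numbered 0 to 2 when samples were left out (Kcna5 and Kcnmb4 without tertiary glioma 2). They numbered 1 with all probes averaged or the filter at the 50th percentile (Kcnq5), 1 with trended variances or array weights (Kcna5), and 2 at an adjusted p under 0.10. Partner genes called lower numbered 1 to 3 when single samples were left out and 4 without both. Over all genes, calls ranged from 492 lower (own variance) to 1265 (array weights), and higher calls from 27 (without tertiary glioma 2) to 781 (without tertiary glioma 1). With all probes averaged, median secondary signals were 4.34 for auxiliary, 4.74 for inward rectifier, 4.51 for tandem-pore and 5.07 for voltage-gated genes. The median difference of calcium- or sodium-activated genes was -0.52 to 0.12 when samples were left out, lowest without tertiary glioma 1, and -0.55 without both samples. The tandem-pore median was 0.12 with the stricter filter, under which the Hcn genes gave no median. Signs were followed only for the tested members named by the rule and for Kcna1 and Kcna5. Among these the sign turned for 9 uncalled members, whose main values lay between -0.17 and 0.15. The signs of the remaining members, Kcnt2 among them, were not followed. When samples were left out, Hcn2 ran from -0.0111 to 0.0443, Kcnd3 from -0.17 to 0.23, Kcne1 from -0.20 to 0.0617, Kcnip1 from -0.42 to 0.68, Kcnip3 from -0.31 to 0.0802, Kcnj10 from -0.33 to 0.0285, Kcnj16 from -0.18 to 0.36, Kcnk1 from -0.21 to 0.36 and Kcnma1 from -0.56 to 0.0691. Array weights gave -0.10 for Kcnd3, 0.0325 for Kcne1, -0.36 for Kcnip1, -0.16 for Kcnj16 and -0.0180 for Kcnk1. Without both samples the values were -0.0111 for Hcn2, -0.27 for Kcnd3, -0.54 for Kcnip1, -0.42 for Kcnj16 and -0.36 for Kcnk1, -0.50 for Kcnip3 and -0.60 for Kcnma1. The block gave 0.0617 for Kcne1 and 0.0325 for Kcnip3, quantile normalization -0.00102 for Kcnd3 and median centring 0.0100 for Kcne1. The causes were not tested.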

Other observations

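Some members lie side by side among coding genes in the RefSeq table, and differences of some such neighbours follow. Of the genes in these runs only Kcnj2 and Kcna3 were called. On chromosome 11, Kcnj16 and Kcnj2 differed by 0.09 and -4.05 on the log2 scale between tertiary and secondary gliomas. On chromosome 3, Kcna3, Kcna2 and Kcna10 lie in a row, with differences of -0.94 for Kcna3 and -0.21 for Kcna2. On chromosome 6, Kcna5, Kcna1 and Kcna6 had 0.92, -0.74 and 0.31. On chromosome 1, Kcnj9 and Kcnj10 had -0.29 and -0.16.

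Identical values recurred. Of the 82 members, 40 had the same deposited value on at least 2 arrays (48.8%), against 35.5% of all genes. In 4 of them, Hcn2, Kcnj6, Kcnk4 and Kcnk7, a value recurred on 4 or more arrays, and their mean signals reached no more than 5.41.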
